A study of Homo sapiens with 2 samples.

Results

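GAS5, ZFAS1, SNHG1, SNHG5, SNHG6, SNHG7, SNHG8, SNHG12, SNHG15 and SNHG16 are long non-coding RNA genes, each named in the count table as listed here, and together they are 10 of its 58735 genes. All 10 had at least 10 counts in at least 1 library and are among the 17887 genes compared. They were measured by RNA sequencing in PLC8024, a human hepatoma line also known as PLC/PRF/5 or Alexander cells, as 1 library of untreated wild-type cells (MAEL WT) and 1 library of cells in which MAEL was knocked out with a guide RNA (MAEL KO). The study asked what changes in liver cancer cells that lose MAEL, a gene known for silencing transposons in the germline. Knockout cells were raised from single sorted clones after a Cas9 plasmid had been transfected, so that traits of the clone and of the knockout cannot be told apart.

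A snoRNA host gene carries small nucleolar RNAs (snoRNAs) in its introns. When the primary transcript is spliced, the introns are trimmed to snoRNAs, which guide chemical modification of ribosomal RNA, while the joined exons form the long non-coding RNA that poly(A) or total RNA sequencing counts. The spliced RNA of several hosts starts with a terminal oligopyrimidine (TOP) tract, as the mRNAs of ribosomal proteins do, and is short-lived because translating ribosomes expose it to nonsense-mediated decay. GAS5 takes its name, growth arrest-specific 5, from its accumulation in cells that stop growing, and its RNA is known to bind the glucocorticoid receptor.

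The annotated first bases of the hosts are shown because they carry this shared feature. A start was counted as TOP-like when its first base is C and at least 4 pyrimidines (C or T) follow it directly. Of the 136 transcripts that GENCODE 29 lists for the 10 genes, 23 (16.9%) began that way, against 2.54% of 84172 non-coding transcripts. The latter were taken by transcript type, retained introns included, whatever the type of their gene. Transcripts of a gene can share a start, so these shares do not count independent starts. The 29 GAS5 transcripts have 17 start positions, and the 6 that began that way share the same one. Some of the 23, among them SNHG12-202 below, are annotated as retaining an intron. One example from each of 6 hosts follows, 25 bases from the 5′ end on GRCh38, with the unbroken run of pyrimidines in capitals.
GAS5-219 (chr1:173867965-173867989, minus strand): CTTTTCgaggtaggagtcgactcct
SNHG16-204 (chr17:76557769-76557793, plus strand): CTTTTCgaggtcggccgcgtggctg
SNHG8-205 (chr4:118278758-118278782, plus strand): CTTTCacattcgggaagcgtcggga
ZFAS1-201 (chr20:49278642-49278666, plus strand): CTTTCgcgtctgcggtgcccggagt
SNHG5-202 (chr6:85678709-85678733, minus strand): CTTTTacgtcggccttcgcgagcgt
SNHG12-202 (chr1:28581849-28581873, minus strand): CCTTTCTCCCCgccgcattcccggt
GAS5 and SNHG16 share their pyrimidine run, and SNHG8 shares its run with ZFAS1. Such starts were listed for 6 of 29 GAS5 transcripts, 3 of 10 for ZFAS1 and 1 of 25 for SNHG1, and SNHG6 had the highest share, 3 of 5, while none was listed for the 4 transcripts of SNHG7 or the 10 of SNHG15. The same search at the start base of RefSeq promoters (GRCh38.p14) found it in 3 of the 8 hosts with an entry (SNHG5, SNHG12 and ZFAS1), in 48 of 80 ribosomal protein promoters and in 4.07% of 35116 promoters. It reads from that base alone, so a miss does not mean that a host lacks the tract. For SNHG8 and SNHG16 the run shown above is present but does not begin at the RefSeq start. The GAS5 window, chr1:173868996-173869295, lies outside the listed gene. Over the window from 250 bases before to 50 after the start, read on both strands, GGGCGG was present in 7 of the 8 hosts and in 45.0% of all promoters, and CACGTG was present in 1, SNHG7, and in 7.26% of all promoters.

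The snoRNA genes themselves were given few counts in these libraries. Of 26 snoRNA entries (24 names, with some entries at the same locus) listed inside the hosts on the same strand, 4 had any count. Their sum was 43 counts in MAEL WT and 54 in MAEL KO. Over all 943 snoRNA genes the sums were 770 and 1039 counts. Several of these snoRNAs lie within annotated exons of their host. How reads in such shared bases were assigned is not given, so few counts cannot be read as low snoRNA levels. The host counts below are counts over the listed exons of each host and say nothing of snoRNA levels. No snoRNA gene inside GAS5 was analysed here. The examples show the conserved C box (TGATGA) and D box (CTGA) of C/D snoRNAs in capitals, and the ACA box of an H/ACA snoRNA, as found near the ends of the listed genes.
SNORD12C in ZFAS1 (chr20:49278940-49279028, plus strand): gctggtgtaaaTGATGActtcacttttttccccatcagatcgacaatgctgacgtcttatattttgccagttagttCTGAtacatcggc
SNORD12B in ZFAS1 (chr20:49280319-49280409, plus strand): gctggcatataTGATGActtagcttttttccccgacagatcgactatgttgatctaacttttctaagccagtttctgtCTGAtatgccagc
SNORD50B in SNHG5 (chr6:85677589-85677658, minus strand): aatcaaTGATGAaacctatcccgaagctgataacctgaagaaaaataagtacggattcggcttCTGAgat
SNORA24 in SNHG8 (chr4:118279190-118279320, plus strand): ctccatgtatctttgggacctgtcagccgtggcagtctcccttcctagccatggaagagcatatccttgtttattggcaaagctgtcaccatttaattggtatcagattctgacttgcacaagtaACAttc
SNORD12C had 20 counts in MAEL WT and 32 in MAEL KO, and SNORD12B had 14 in each. SNORD50B and SNORA24 had 0 in both libraries. All 70 bases of SNORD50B and all 131 of SNORA24 are shared with exons of their hosts. If reads there were left unassigned, a 0 sets no bound on their level.

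The libraries held 19904136 counts (MAEL WT) and 20833332 counts (MAEL KO), and counts were scaled by TMM, a method that sets most genes near no change. A log2 fold change below is that of MAEL KO over MAEL WT with 1 added to the scaled counts, and its 95% interval is an exact Clopper-Pearson interval. Such an interval describes counting error alone. PCR copies of a molecule could not be recognised in these reads, and where present they make the interval too narrow. With 1 library per condition there is no replicate error, so that no test was made and no p-value is given, and a change is called here when it passes 1 on the log2 scale, or 2, the threshold in the study's methods. MAEL had 1 count in MAEL WT and 0 in MAEL KO, and its level therefore does not check the labels.

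Among the hosts, GAS5 and SNHG8 fell, SNHG12 and SNHG16 rose, and the other 6 stayed within 1 of no change on the log2 scale. The falls of GAS5 and SNHG8 were past -1 under each scaling tried, whereas with counts scaled by their totals SNHG12 was at 0.97 and SNHG16 at 0.73, and 0 hosts passed 1. None of the 10 passed 2, a size that 7.8% of all tested genes passed in one direction or the other. The 2 hosts above 1 compare with 10.2% of all tested genes and 11.2% of the 2640 tested non-coding genes. The 2 hosts below -1 compare with 16.5% of all tested genes and 28.8% of the non-coding ones. With 10 genes, 2 in either direction is not read as a result about the hosts. Their median log2 fold change was 0.58 (0.31 with total counts, which put all tested genes at -0.31), beside -0.04 over all tested genes and -0.40 over tested non-coding genes. Among the 74 non-coding genes that had at least the 815 summed counts of the least counted host, SNHG12, the median was -0.28, with 8 (10.8%) above 1 and 18 (24.3%) below -1. Among the 8296 genes of any kind with that many counts, the median was 0.15, with 9.06% above 1 and 4.76% below -1.

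**Figure D1:**
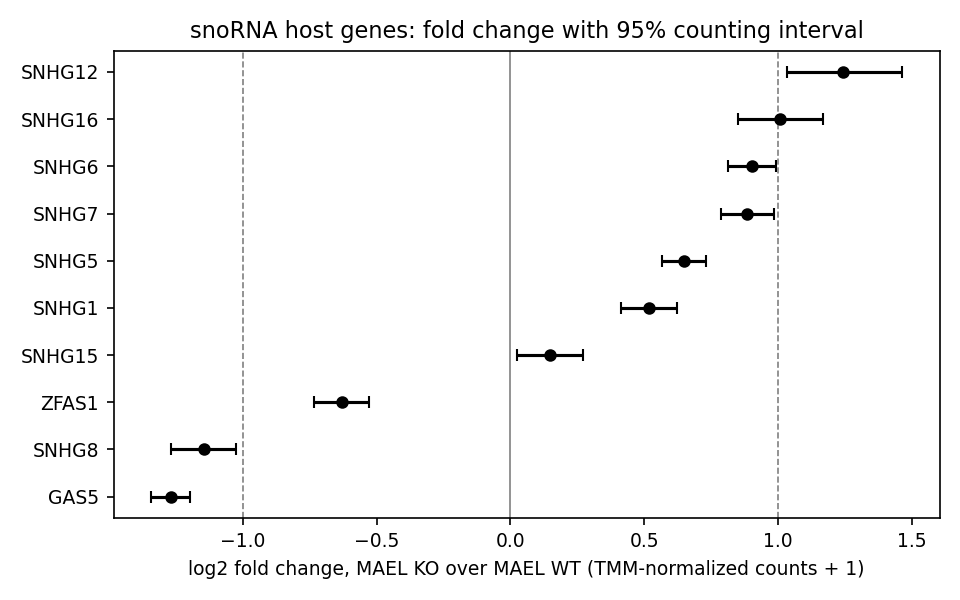
Log2 fold change of each snoRNA host gene (points, x axis) with its 95% counting interval (bars), MAEL KO over MAEL WT, 1 library each. GAS5 and SNHG8 lie below the dashed line at -1, SNHG12 and SNHG16 lie above the line at 1, and the interval of SNHG16 crosses that line.

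GAS5 (ENSG00000234741, chr1:173863900-173868882, minus strand, up to 13 exons) had the most counts of the 10 genes in MAEL WT, 5938, and 2127 in MAEL KO. Its level per length fell from 74.8 to 30.9 FPKM (fragments scaled by listed exon length and library size), and its scaled count was 2.41-fold lower in MAEL KO, with a log2 fold change of -1.27 (-1.34 to -1.20). The interval lies wholly below -1. Of its 29 annotated transcripts, 19 retain an intron, and the listed gene length of 3631 bases is the union of all their exons, so that an FPKM understates the level of a short spliced form.

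SNHG8 (ENSG00000269893, chr4:118278709-118279823, plus strand), the shortest of the 10 at 923 exonic bases, had 1993 counts in MAEL WT and 778 in MAEL KO. Its level fell from 98.7 to 44.5 FPKM, with a log2 fold change of -1.15 (-1.27 to -1.03). The ratio of GAS5 to SNHG8 counts was 2.98 in MAEL WT and 2.73 in MAEL KO, a log2 change of -0.12 (95% Wald interval -0.26 to 0.02), which includes 0. SNORA24 accounts for 131 of the bases of SNHG8, or 14.2%.

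ZFAS1 (ENSG00000177410, chr20:49278178-49295738, plus strand), an RNA antisense to the 5′ end of ZNFX1 that carries the SNORD12 family, had 2110 counts in MAEL WT and 1178 in MAEL KO. The level was 43.0 FPKM in MAEL WT and 27.7 FPKM in MAEL KO, a log2 fold change of -0.63 (-0.73 to -0.53). ZFAS1 was thus lower in MAEL KO without passing -1. Of its exonic bases, 46.9% are shared with exons of other genes on either strand, the largest share of the 10 hosts. How the authors assigned reads in shared bases, and whether by strand, is not given in the sources used here.

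SNHG15 (ENSG00000232956, chr7:44983023-44986961, minus strand), host of SNORA9, differed least between the libraries. It had 1102 counts in MAEL WT and 1056 in MAEL KO, or 13.8 and 15.3 FPKM. The log2 fold change was 0.15 (0.03 to 0.27) and became -0.13 when counts were scaled by their totals, so that no direction can be given.

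SNHG1 and SNHG5, which carry C/D snoRNAs, had log2 fold changes between 0 and 1. SNHG1 (ENSG00000255717, chr11:62851988-62855914, minus strand), with 7 snoRNA genes listed inside it, had 1333 counts in MAEL WT and 1648 in MAEL KO, or 16.2 and 23.1 FPKM. Its log2 fold change was 0.52 (0.41 to 0.62). SNHG5 (ENSG00000203875, chr6:85660950-85678748, minus strand), host of SNORD50B, had 2114 and 2866 counts, or 34.4 and 53.9 FPKM, a log2 fold change of 0.65 (0.57 to 0.73). SNHG5 had nearly the same count as ZFAS1 in MAEL WT and more than it in MAEL KO, where the counts were 2866 and 1178.

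SNHG7 and SNHG6 lay just under the threshold. SNHG7 (ENSG00000233016, chr9:136721366-136728184, minus strand), host of the SNORA17 pair, had 1364 counts in MAEL WT and 2179 in MAEL KO, or 14.4 and 26.5 FPKM, a log2 fold change of 0.89 (0.79 to 0.98). SNHG6 (ENSG00000245910, chr8:66921684-66926398, minus strand), host of SNORD87, had 1611 and 2604 counts, a log2 fold change of 0.90 (0.81 to 0.99). Per length, SNHG6 went from 59.1 to 110 FPKM and had the highest FPKM of the hosts in MAEL KO, where SNHG5 had the most counts, 2866. GAS5 had 3.69 times the counts of SNHG6 in MAEL WT and 0.817 times in MAEL KO.

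SNHG16 and SNHG12 rose, from the lowest levels of the 10. SNHG16 (ENSG00000163597, chr17:76557766-76565348, plus strand), host of the SNORD1 family, had 511 counts in MAEL WT and 889 in MAEL KO, or 4.36 and 8.75 FPKM. Its log2 fold change of 1.01 has an interval, 0.85 to 1.17, on both sides of the threshold. SNHG12 (ENSG00000197989, chr1:28578538-28583132, minus strand), which carries both C/D and H/ACA snoRNAs, had 267 and 548 counts, or 2.86 and 6.78 FPKM, a 2.37-fold rise with a log2 fold change of 1.24 (1.03 to 1.46). It had the largest rise of the 10 and the fewest counts in both libraries.

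**Figure D2:**
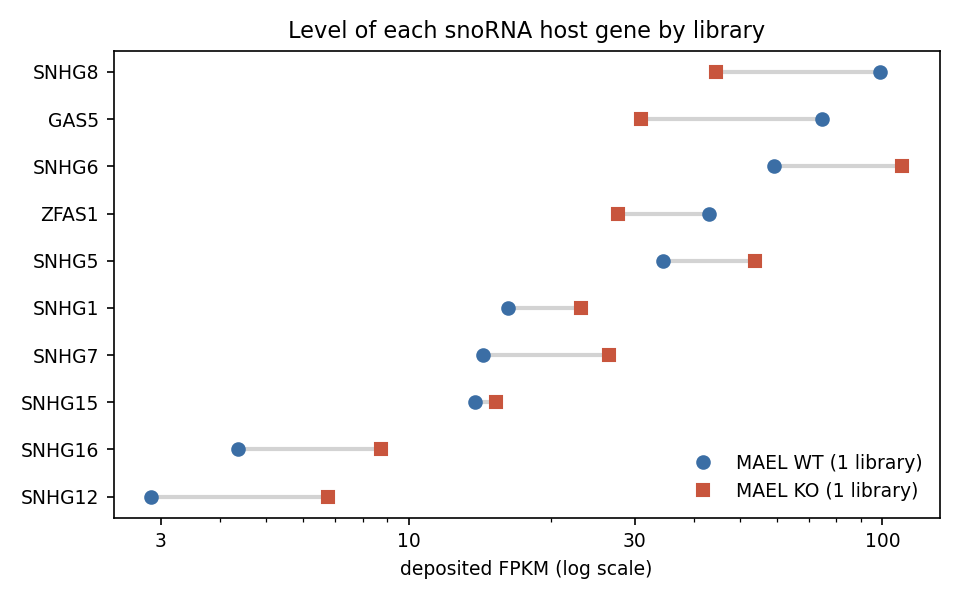
Deposited FPKM (x axis, log scale) of each snoRNA host gene in MAEL WT (circles) and MAEL KO (squares), 1 library each, ordered by the MAEL WT level. GAS5, SNHG8 and ZFAS1 move to the left, and SNHG6 reaches the highest value, 110 FPKM.

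By FPKM the order in MAEL WT was SNHG8, GAS5, SNHG6, ZFAS1, SNHG5, SNHG1, SNHG7, SNHG15, SNHG16 and SNHG12. Of these neighbours, SNHG7 and SNHG15 did not differ beyond counting error, with a log2 ratio of 0.06 (-0.06 to 0.17). In MAEL KO the order was SNHG6, SNHG5, SNHG8, GAS5, ZFAS1, SNHG7, SNHG1, SNHG15, SNHG16 and SNHG12. There ZFAS1 and SNHG7 did not differ beyond counting error, with a log2 ratio of 0.07 (-0.04 to 0.17). Among the 2640 tested non-coding genes, GAS5 went from rank 3 to 10 and SNHG8 from 2 to 7 by FPKM, while SNHG6 went from 5 to 2 and SNHG5 from 10 to 5. SNHG16 and SNHG12 went from ranks 266 and 414 to 70 and 105. FPKM divides by the union of all annotated exons, so orders and ranks between genes also depend on what is annotated for each.

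Together the hosts took fewer reads in MAEL KO, and that depended on how the libraries were scaled. Their summed counts were 18343 in MAEL WT and 15873 in MAEL KO, or, as a share of all counts in the library, 922 CPM (95% interval 908 to 935) and 762 CPM (750 to 774). Scaled by TMM the sums were 837 and 838 CPM, and the sums of FPKM were 362 and 347. The make-up of the sum does not depend on the scaling. GAS5 supplied 32.4% of it (95% interval 31.7 to 33.1) in MAEL WT and 13.4% (12.9 to 13.9) in MAEL KO. GAS5, SNHG8 and ZFAS1 together supplied 54.7% in MAEL WT and 25.7% in MAEL KO, and the other 7 hosts took up the difference.

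**Figure D3:**
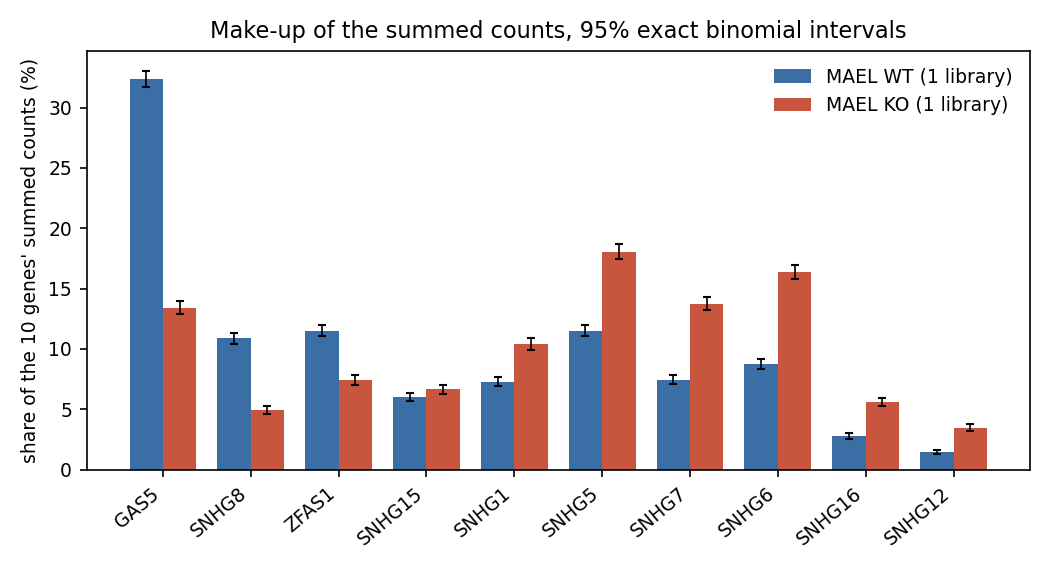
Share of the 10 hosts' summed counts (y axis, percent) supplied by each gene in MAEL WT and MAEL KO, 1 library each, with 95% exact binomial intervals (bars). The share of GAS5 goes from 32.4% to 13.4%, and in MAEL KO the shares of SNHG5 and SNHG6 lie above it, while that of SNHG7, 13.7%, has an interval that overlaps it.

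Ratios between hosts within a library are likewise free of the scaling. For 40 of the 45 pairs the change in ratio had a 95% Wald interval that excludes 0. These intervals hold counting error alone, so between well-counted genes even a small change can exclude 0. The share was not taken over pairs of other genes, and it is not read as a result about the hosts. The 5 pairs whose interval includes 0 were GAS5 with SNHG8, SNHG7 with SNHG6, SNHG7 with SNHG16, SNHG6 with SNHG16, and SNHG16 with SNHG12. The widest change was between GAS5 and SNHG12, whose count ratio went from 22.2 to 3.88, a log2 change of -2.52 (-2.74 to -2.30).

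Several hosts start beside, or overlap, a gene on the opposite strand. Distances given here run between the outermost annotated starts of the genes, not from the TOP-like starts shown above. SNHG1 starts 188 bases from SLC3A2, which encodes the heavy chain of amino acid transporters. SLC3A2 had 8350 counts in MAEL WT and 3826 in MAEL KO, a log2 fold change of -0.92 (-0.97 to -0.86; -1.19, past the threshold, with total counts), opposite to SNHG1 at 0.52 (0.24). The difference of their log2 changes was 1.43 (95% Wald interval 1.31 to 1.55). GAS5 starts 800 bases from ZBTB37, a zinc finger gene, which had 544 and 562 counts, a log2 fold change of 0.26 (0.08 to 0.43) that became -0.02 with total counts. GAS5 changed by -1.53 (-1.71 to -1.34) relative to ZBTB37, a difference that no scaling alters. GAS5-AS1, on the strand opposite GAS5, had 12 and 15 counts.

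ZFAS1 starts 248 bases from ZNFX1, a helicase gene, which had 1088 counts in MAEL WT and 843 in MAEL KO. The log2 fold change of ZNFX1 was -0.16 (-0.29 to -0.03; -0.43 with total counts), and ZFAS1 lay 0.47 below it (interval of the difference, ZFAS1 minus ZNFX1, -0.64 to -0.31). SNHG12 overlaps TRNAU1AP, with 381 and 437 counts and a log2 fold change of 0.41 (0.21 to 0.61; 0.13 with total counts), which SNHG12 exceeded by 0.84 (0.55 to 1.13). SNHG7 overlaps FAM69B, with 470 and 581 counts and a log2 fold change of 0.52 (0.34 to 0.69; 0.24 with total counts), which SNHG7 exceeded by 0.37 (0.17 to 0.57). The genes opposite SNHG6 and SNHG16 were sparsely counted: MCMDC2 had 39 counts in each library, AC015802.4 had 10 and 6, and AC015802.6 had 2 and 8.

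**Figure D4:**
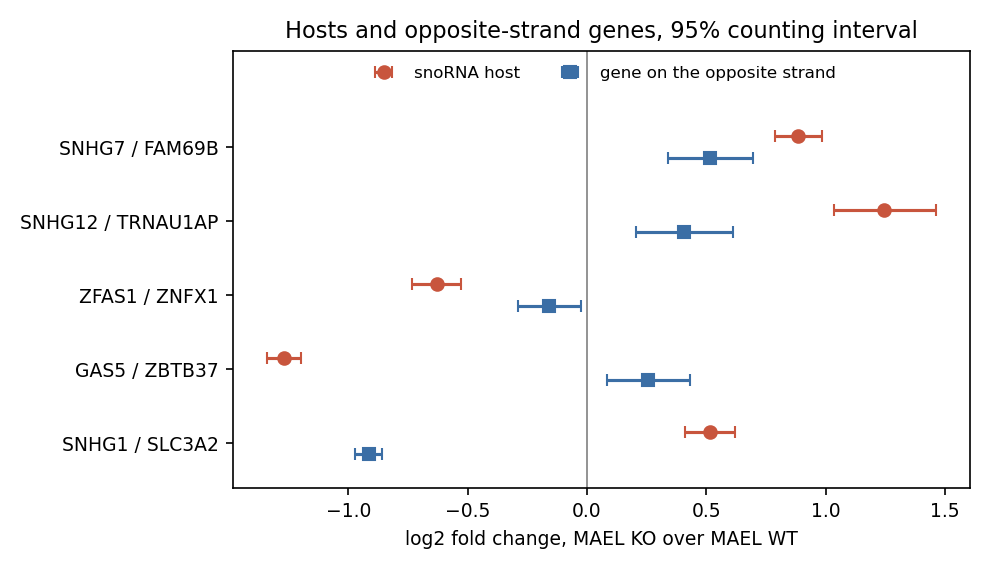
Log2 fold change (x axis) with 95% counting interval of 5 snoRNA hosts (circles) and of the gene on the opposite strand (squares), MAEL KO over MAEL WT, 1 library each. SNHG1 and SLC3A2 lie on opposite sides of 0, and ZBTB37 (0.26, or -0.02 with total counts) lies far above GAS5.

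Other non-coding snoRNA hosts also lay on both sides of 0. Of 21 listed, 16 had at least 10 counts in a library, and they had a median log2 fold change of 0.01 (-0.27 with total counts), with 3 above 1 and 2 below -1. C6orf48, the older name of SNHG32 and listed as protein-coding in the table, had 4971 and 1000 counts (log2 fold change -2.10), SNHG20 had 160 and 62 (-1.15), and EPB41L4A-AS1 had 790 and 506 (-0.43). At the other end were SNHG19 with 121 and 311 counts (1.56), DANCR with 679 and 1601 (1.45), and SNHG26 with 57 and 131 (1.39). Taken by annotation instead, the 22 tested non-coding genes, other than the 10, that enclose a snoRNA had a median of -0.14 (-0.41 with total counts), with 4 above 1 and 6 below -1.

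Protein-coding snoRNA hosts were counted as ribosomal and other genes. The ribosomal protein genes that enclose a snoRNA had log2 fold changes above 0 in 28 of 28 cases, with 8 above 1 (4 with total counts) and a median of 0.85, led by RPL7A with 8504 and 21489 counts (1.55), RPSA (1.48) and RPS2 (1.32). The 53 ribosomal protein genes without a snoRNA gave the same median, 0.85, with 15 above 1 (2 with total counts). The 182 tested hosts that encode other proteins had a median of 0.26 (-0.02 with total counts), with 116 above 0, 14 above 1 and 15 below -1, from ZNF157 with 41 and 5 counts (-2.62) to PLPPR1 with 8 and 75 (3.28). C6orf48 is in this list as well.

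**Figure D5:**
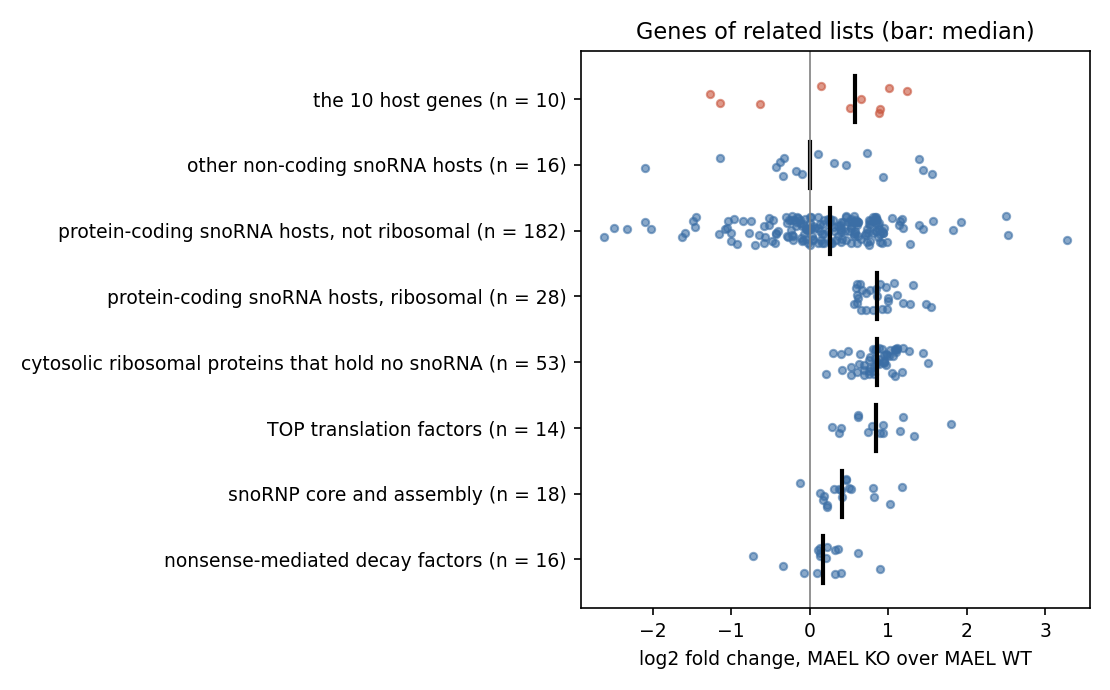
Log2 fold change (x axis), MAEL KO over MAEL WT, 1 library each, of single genes (points) in 8 lists, with the median of each list (black bars). Ribosomal protein genes and the genes labelled TOP translation factors lie above 0 (with total counts 1 ribosomal protein gene does not), whereas the 10 hosts and the other snoRNA hosts fall on both sides.

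Genes listed for mRNAs with a TOP tract, translation factors and a few others, were above 0 in 14 of 14 cases, with 4 above 1 (2 with total counts) and a median of 0.84. The 3 highest encode no translation factor: HNRNPA1, an RNA-binding splicing protein, had 9328 and 28099 counts (1.80), NAP1L1, a histone chaperone, 3659 and 7978 (1.33), and NPM1, a nucleolar chaperone, 23164 and 45482 (1.18). The lowest was EEF1D, an elongation factor subunit, with 2077 and 2189 (0.29). Of the 8 snoRNA hosts with a TOP-like start in the annotation, GAS5, SNHG8 and ZFAS1 had log2 fold changes below 0, and SNHG1, SNHG5, SNHG6, SNHG16 and SNHG12 had values above 0.

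Genes for proteins that bind and assemble snoRNAs had a median of 0.41 over 18 genes, 17 of them above 0, 2 above 1 and 0 below -1. With total counts 12 were above 0 and 0 above 1. NOP56 had 2826 and 5534 counts (1.18) and FBL, the methyltransferase of C/D particles, had 2996 and 5283 (1.03). NOLC1 followed at 0.82, and ZNHIT6, with 1286 and 1018 counts, was lowest at -0.13. Nonsense-mediated decay factors lay nearer to 0, with a median of 0.17 (-0.10 with total counts) over 16 genes and 0 past 1 in either direction. DCP2, which removes the cap, had 491 and 791 counts (0.90), and XRN1, the 5′ to 3′ exonuclease, had 697 and 366 (-0.72). SMG5 was at -0.34 and EIF4A3, a core exon junction protein, at 0.62.

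Genes of the glucocorticoid receptor list, and genes that share the growth arrest-specific name with GAS5, were described as further lists. The 10 genes of the glucocorticoid receptor list, the receptor gene NR3C1 and its targets, had a median of -0.13, with 3 above 0, 0 above 1 and 1 below -1. With total counts the median was -0.40, with 2 above 0 and 2 below -1. FKBP5, a classical target, had 1212 and 2084 counts (0.99), whereas TSC22D3, which encodes GILZ, had 682 and 344 (-0.78), BIRC3 1070 and 619 (-0.58) and SGK1 19 and 6 (-1.32). Of the 5 tested growth arrest-specific genes, GAS7 had 171 and 43 counts (-1.76) and GAS2L3, an actin and microtubule linker, 380 and 872 (1.41), with a median of 0.18 (-0.10 with total counts).

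A list of 4 nuclear long non-coding RNAs had 2 genes below -1 and 0 above 1. NEAT1, the scaffold of paraspeckles, had 16194 counts in MAEL WT and 1699 in MAEL KO (-3.04), and MALAT1 had 5407 and 1502 (-1.64). TUG1, with 3243 and 2934 counts, was at 0.07 (below 0 with total counts), and KCNQ1OT1, with 130 and 103, at -0.12.

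Other features also differed between the libraries. The 10 proliferation markers summed to 500 CPM in MAEL WT and 1948 CPM in MAEL KO, each with a log2 fold change above 1, from TOP2A (1.90) to CCNA2 (2.67). The paper instead reports slower proliferation of MAEL knockout PLC8024 cells, measured on cells rather than by RNA. The reason for this difference was not tested, and the MAEL counts do not check which library is the knockout. The 8 hepatocyte and hepatoma markers summed to 9044 and 20005 CPM and were higher in MAEL KO in 8 of 8 cases. Of these, APOB and SERPINA1 were abundant in both libraries, while ALB, AFP and TTR, with 59, 26 and 20 counts, were sparse in MAEL WT. The 3 leukocyte markers summed to 5 counts in each library, with CD3E at 0 in both, and the 3 fibroblast markers to 268 and 176. The 3 endothelial markers summed to 353 and 407 counts, nearly all from PECAM1. The part of these differences in the host values was not tested, and in bulk RNA fewer cells with a transcript and less of it per cell cannot be told apart.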

How the data were processed

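Total RNA of 1 MAEL WT and 1 MAEL KO culture of PLC8024 was sequenced on a HiSeq instrument for the authors. The authors deposited whole-number read counts per gene, without normalization, and FPKM values. The submitters' processing notes name HISAT2 2.0.5, featureCounts 1.5.0-p3 and hg19, whereas gene coordinates in the tables are those of GRCh38 and were the same as in GENCODE 29 for 58735 of 58735 genes. GRCh38 is used here. The FPKM values rest on library sizes 1.10 and 0.91 times the total counts. Columns are named PLC5 rather than by the labelled line and were assigned by the WT and KO in their names.

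TMM factors came from edgeR 4.0.16 and alternative size factors from DESeq2 1.42.0, both in R 4.3.3. The remaining steps used SciPy 1.17.1, NumPy 2.4.6, pandas 2.3.3 and matplotlib 3.10.9 under Python 3.11.15. Genes with at least 10 counts in 1 library were compared. At these depths 3 counts, the floor used, equal 0.1507 and 0.144 CPM. The steps were tested on simulated data. The authors' calls and p-values were not used. The host genes, gene lists and thresholds were chosen with earlier results of these data known. Named besides the hosts are genes at their loci (1 is not reported here), nested snoRNAs with at least 10 counts, up to 3 genes at each end of a list, and marker genes. Examples of nested snoRNAs without counts were chosen for their sequence after values were seen.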

Additional observations from a re-analysis of the deposited data

How the results depend on the processing

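Leaving out a library was not possible, and neither was a paired fit. No paired analysis was possible because each condition has 1 library. The signs of the log2 fold changes of GAS5, SNHG8, ZFAS1, SNHG1, SNHG5, SNHG6, SNHG7, SNHG12 and SNHG16 were kept under DESeq2 size factors, total counts, TMM factors from protein-coding genes, the ratio of deposited FPKM values and prior counts of 0.1 and 5. SNHG15 changed sign with total counts. That scaling lowered the all-gene median, -0.04, to -0.31, and of genes past 1 in size 22.6% were then higher, against 38.2%. With it the host values were -1.55 for GAS5, -1.42 for SNHG8, -0.91 for ZFAS1, -0.13 for SNHG15, 0.24 for SNHG1, 0.37 for SNHG5, 0.61 for SNHG7, 0.63 for SNHG6, 0.73 for SNHG16 and 0.97 for SNHG12, and 0 hosts were above 1. List medians with total counts were 0.31 for the hosts, 0.13 for snoRNP proteins, -0.10 for decay factors, 1.97 for proliferation markers, -0.017 for snoRNA hosts encoding other proteins, 0.58 for ribosomal protein genes and also for those with and without a snoRNA. With TMM factors from protein-coding genes 1 host was above 1. The summed level changed by -0.27 on the log2 scale in CPM, 0.00169 in TMM-scaled CPM and -0.058 in FPKM. Over all genes, 1395 passed 2, or 763 with a prior count of 5, 2802 without a count filter and 468 at 100 counts. Above 1 were 1827 genes, or 1174 with total counts, 5304 without a filter and 1110 at 100 counts. Below -1 were 2951, or 4017 with total counts, 5745 without a filter and 1101 at 100 counts. Of 230 alternative values, 199 stayed within their interval, within 1.5 times the count or, for the all-gene median, within 0.1. The interval of a list median runs between values of the list's own genes. It is wide for short lists, -1.15 to 1.01 for the hosts, so staying within it says little. Of the 31 that moved, 20 did so with total counts, among them the log2 fold change of every host.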
